A study of Mus musculus with 6 samples.

Results

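Heme synthesis was read through 10 mouse genes, taken as every probe set that the platform annotation pairs with the symbol of Alas1, Alas2, Slc25a38, Alad, Uros, Urod, Cpox, Tmem14c, Ppox or Fech. These genes had 21 of the 45101 probe sets of the array, and 10 of the 18193 genes that the annotation names. A probe set was tested where its intensity lay above the 40th percentile of its array on at least 3 of the 6 arrays, and 19 of the 21 were. Each of the 10 genes kept at least 1 tested probe set.

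The samples were bone marrow cells sorted as lineage negative, cKit+ and Sca1-, a gate that holds progenitors of red cells, megakaryocytes, granulocytes and monocytes. The 3 ICN2 positive samples came from male mice of genotype Rosa-lsl-ICN2 Mx1-cre+, and the 3 ICN2 negative samples from female Mx1-cre+ littermates. ICN2 is the intracellular, constantly active part of the receptor Notch2, placed behind a stop cassette that Cre removes. Every mouse was 6 weeks old, carried Mx1-cre and was injected 3 times with polyIC (20 mcg for each g of weight), and cells were taken 1 week after the last. PolyIC induces interferon, which drives Mx1-cre in many hematopoietic and other cells, so the transgene is not limited to the sorted population. The genotype of the mice and their sex cannot be told apart here. Nothing in the labels says that arrays of a group came from separate animals, so the p-values cover only how these samples vary, which may be technical variation.

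Heme is an iron-bearing ring made in steps that are split between mitochondria and cytosol. The first step joins glycine and succinyl-CoA and is carried out by 5-aminolevulinate synthase, which has a widely used form, encoded by Alas1, and an erythroid form, encoded by the X-linked Alas2. Developing red cells need large amounts of heme for hemoglobin, while granulocyte and monocyte precursors need it for enzymes such as myeloperoxidase and for the cytochrome of the phagocyte oxidase.

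Of the 10 members, 9 were found in a RefSeq table of promoter windows (GRCm38.p6). The 250 bases before the outermost annotated start are shown for the 2 genes of the first step and for Cpox. They were searched for GATAA, the core that GATA factors bind, because these factors are known regulators of erythroid heme synthesis. Capitals mark GATAA as read on either strand (TTATC on the strand printed).
Alas1, chr9:106247955-106248204, minus strand: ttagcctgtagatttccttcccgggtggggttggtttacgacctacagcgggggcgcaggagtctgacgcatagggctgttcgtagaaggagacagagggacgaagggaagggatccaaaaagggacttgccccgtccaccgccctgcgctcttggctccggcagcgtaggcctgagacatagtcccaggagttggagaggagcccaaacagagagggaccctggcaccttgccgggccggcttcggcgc
Alas2, chrX:150547167-150547416, plus strand: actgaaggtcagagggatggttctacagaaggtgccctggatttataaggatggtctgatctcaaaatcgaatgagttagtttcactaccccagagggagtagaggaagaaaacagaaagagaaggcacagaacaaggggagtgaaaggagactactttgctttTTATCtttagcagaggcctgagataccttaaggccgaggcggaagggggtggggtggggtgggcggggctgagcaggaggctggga
Cpox, chr16:58669958-58670207, plus strand: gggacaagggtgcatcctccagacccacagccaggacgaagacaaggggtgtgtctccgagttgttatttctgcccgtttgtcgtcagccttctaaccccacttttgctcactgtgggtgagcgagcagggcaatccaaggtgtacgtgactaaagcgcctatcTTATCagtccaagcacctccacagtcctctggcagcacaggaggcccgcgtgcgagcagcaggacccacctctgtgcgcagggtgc
The Alas2 and Cpox windows each held the core once, starting 86 bases before the start, and the Alas1 window did not hold it. The 9 members had 12 windows, of which 4 held it (33.3%), against 22.6% of all 32851 windows of 250 bases in the table. These were windows of Alas2, Uros, Tmem14c and Cpox, and that of Uros was its inner one. Alas2 and Cpox are among those shown, while no window of Slc25a38, Alad, Urod or Ppox held the core. These matches describe letters only and say nothing of binding.

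The 6 arrays had median log2 intensities of 6.05 to 6.09, a likeness that RMA forces. ICN2 positive replicate 1 stood apart, with correlations of 0.984 and 0.987 to the other arrays of its group over all probe sets, against 0.995 between these others and 0.994 to 0.995 among the ICN2 negative arrays. Its difference between 3' and 5' probe sets of beta-actin was 1.01 (log2), against 0.71 to 0.85 on the other 5 arrays. Kit, the gene of the sorted receptor, was at 10.15, 10.70 and 10.86 (log2 intensity) in ICN2 positive cells and at 10.46, 10.50 and 10.38 in ICN2 negative cells. Of 9 lineage genes listed, 5 were tested and none passed, though Cd79b was called lower without ICN2 positive replicate 1. Itgam, a myeloid lineage marker, lay below the 40th percentile on all 6 arrays. The gene of Sca1 was not analysed here.

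None of the 10 heme synthesis genes passed an adjusted p of 0.05 between ICN2 positive and ICN2 negative cells in limma, against 4.36% of all 12837 genes tested in either direction. At an unadjusted p under 0.05 there were 3 lower members (Alas1, Uros and Tmem14c) and no higher one, against 12.2% lower and 15.3% higher over all genes. The means of 9 members were lower, as were those of 47.0% of all genes, and that of 1, Alad, was higher, with a median difference of -0.24 on the log2 scale for the members and 0.02 for all genes tested. Groups did not overlap for 3 members on the lower side (Alas1, Uros and Tmem14c), where 16.9% of all genes were, and for 1 on the higher side (Alad), where 20.7% were. At the level of probe sets, none of 19 passed, against 2.65% of all 27424 tested, and 4 were lower and 1 higher at an unadjusted p under 0.05, against 9.90% and 14.4%. Groups did not overlap for 4 probe sets on the lower side and 2 on the higher side, where 14.0% and 19.7% of all probe sets were. Without ICN2 positive replicate 1, none of the 10 genes or 19 probe sets passed either, against 5.98% of genes and 3.14% of probe sets, and 5 genes were lower at an unadjusted p under 0.05, against 12.5%.

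**Figure D1:**
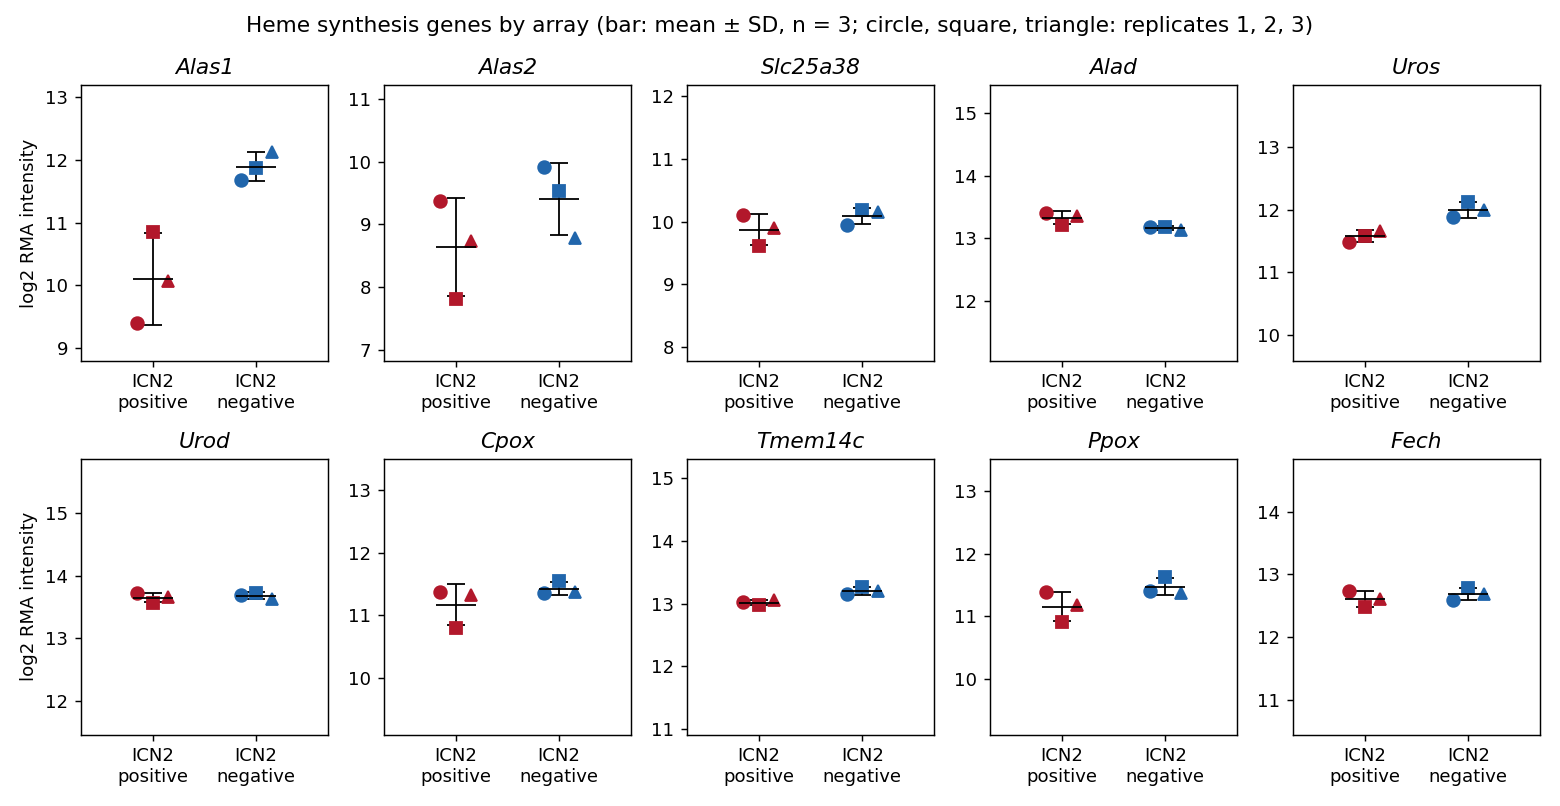
Log2 RMA intensity (y axis, each panel spanning the same number of log2 units) of the 10 heme synthesis genes on each array, by group (x axis), with the mean and SD of 3 arrays; red is ICN2 positive, blue ICN2 negative. Alas1 is at most 10.85 on the ICN2 positive arrays and at least 11.68 on every ICN2 negative array, while the points of Urod and Fech interleave.

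The member with the largest difference was Alas1, the first enzyme of the pathway in most tissues. Its brighter probe set, 1455282_x_at, read 9.39, 10.85 and 10.07 (log2 intensity) in ICN2 positive replicates 1, 2 and 3, against 11.68, 11.87 and 12.13 in ICN2 negative replicates 1, 2 and 3. Every ICN2 positive array was below every ICN2 negative array, and the ICN2 positive arrays were spread over a wider range. The means were 10.10 ± 0.73 in ICN2 positive cells and 11.89 ± 0.23 in ICN2 negative cells (SD, n = 3 each), a difference of -1.79 ± 0.37 (SE) with a 95% interval of -2.71 to -0.87. That is 3.46-fold lower in ICN2 positive cells, and it missed the threshold over all genes (adjusted p = 0.0601, limma). A name that ends in _x_at marks probes that may also read other transcripts, and the other probe set, 1424126_at, does not carry it. It read 8.95, 10.54 and 9.79 in ICN2 positive cells and 11.49, 11.70 and 12.07 in ICN2 negative cells, a difference of -1.99 ± 0.41 (adjusted p = 0.0725 over probe sets). Both probe sets put the 6 arrays in the same order.

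The call for Alas1 lay close to the threshold. Without ICN2 positive replicate 2, the array of that group with the highest level, the difference was -2.16 and passed (adjusted p = 0.0335), and without ICN2 positive replicate 1 it was -1.44 (adjusted p = 0.0508). With any other array left out the adjusted p was 0.109 to 0.19. It also passed with array weights (-1.84, adjusted p = 0.0055) and with a robust variance model with an intensity trend (adjusted p = 0.0417). These 2 settings called 3262 and 835 of all 12837 genes, against 560 as reported.

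Markers of granulocyte-monocyte progenitors moved with Alas1. Of 13 such genes listed, 11 were tested, and none passed over all genes. Their median difference was -1.74 (log2). The median of the list lay at -3.40, -0.52 and -0.76 from the ICN2 negative mean on ICN2 positive replicates 1, 2 and 3, where Alas1 lay at -2.50, -1.05 and -1.82. On ICN2 negative replicates 1, 2 and 3 the list lay at -0.11, 0.03 and 0.08, and Alas1 at -0.22, -0.02 and 0.24. The arrays had the same order by Alas1 and by this list, over 6 points that share the groups. The summed intensity of the 11 markers was 11831 to 71653 in ICN2 positive cells and 94481 to 106934 in ICN2 negative cells. Without ICN2 positive replicate 1, 6 of the 11 passed an adjusted p of 0.05, each lower, against 3.08% of all genes, the list's median was -0.61, and the difference of Alas1 was -1.44. Lower marker sums were also measured for 7 macrophage genes (1245 to 1612 in ICN2 positive cells, 2909 to 3087 in ICN2 negative cells) and for 5 B cell genes (748 to 1906, against 3476 to 13263). The macrophage genes did not move as one. Spic and C1qb had higher means in ICN2 positive cells (differences of 1.17 and 0.88, the groups of C1qb overlapping), and neither passed. The other macrophage genes had lower means. One gene of the macrophage list (Vcam1) and 1 of the B cell list (Dntt) were called lower, against 1.78% of all genes. Other lists ran the opposite way. The sum of 5 T cell genes was higher, at 780 to 2902 in ICN2 positive cells and 241 to 562 in ICN2 negative cells, and none of the 5 passed. Of 8 mast cell genes tested, 3 rose, against 2.59% of all genes: the mast cell protease genes Mcpt1 (87.2-fold, adjusted p = 0.00963, limma), Mcpt2 (66.6-fold) and Mcpt4 (20.9-fold). In ICN2 negative cells these 3 read 3.09 to 4.53 (log2 intensity), under the 40th percentile of each array (5.26 to 5.30). They met the filter only through the ICN2 positive arrays, where they were high. Their folds are therefore taken against low values without measured background, and their calls are no independent support. The other 5 mast cell genes did not pass. Cma1 and Tpsb2 had higher means (differences of 0.82 and 0.08), and Cpa3, Fcer1a and Ms4a2 had lower ones (-0.32, -1.35 and -0.03). Without ICN2 positive replicate 1, Cpa3, Fcer1a and Ms4a2 differed by 0.34, 0.31 and 0.93. The sum of all 8 mast cell genes overlapped between the groups (4071 to 12399, against 4053 to 6198), as did that of 6 megakaryocyte genes. With 1 array left out, 1 to 3 of the mast cell genes passed, against 99 to 768 of all 12837 genes in either direction. The count of 1 (Mcpt2) was that without ICN2 negative replicate 2 or 3, where 99 and 100 of all genes passed. Dntt missed the threshold on leaving out any single array, and Vcam1 on leaving out any but ICN2 positive replicate 1. Other genes of these lists did not pass as reported but did with an array left out, and their calls under the other settings were not read. Without ICN2 positive replicate 1, Cd79b (B cell) and Cd68 (macrophage) passed as lower and Cd7 (T cell) as higher. Without ICN2 positive replicate 2, Adgre1 (macrophage) passed as lower. Fewer cells of a type and less RNA per cell cannot be told apart in such bulk samples, and the part of these cell types in the result was not tested.

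**Figure D2:**
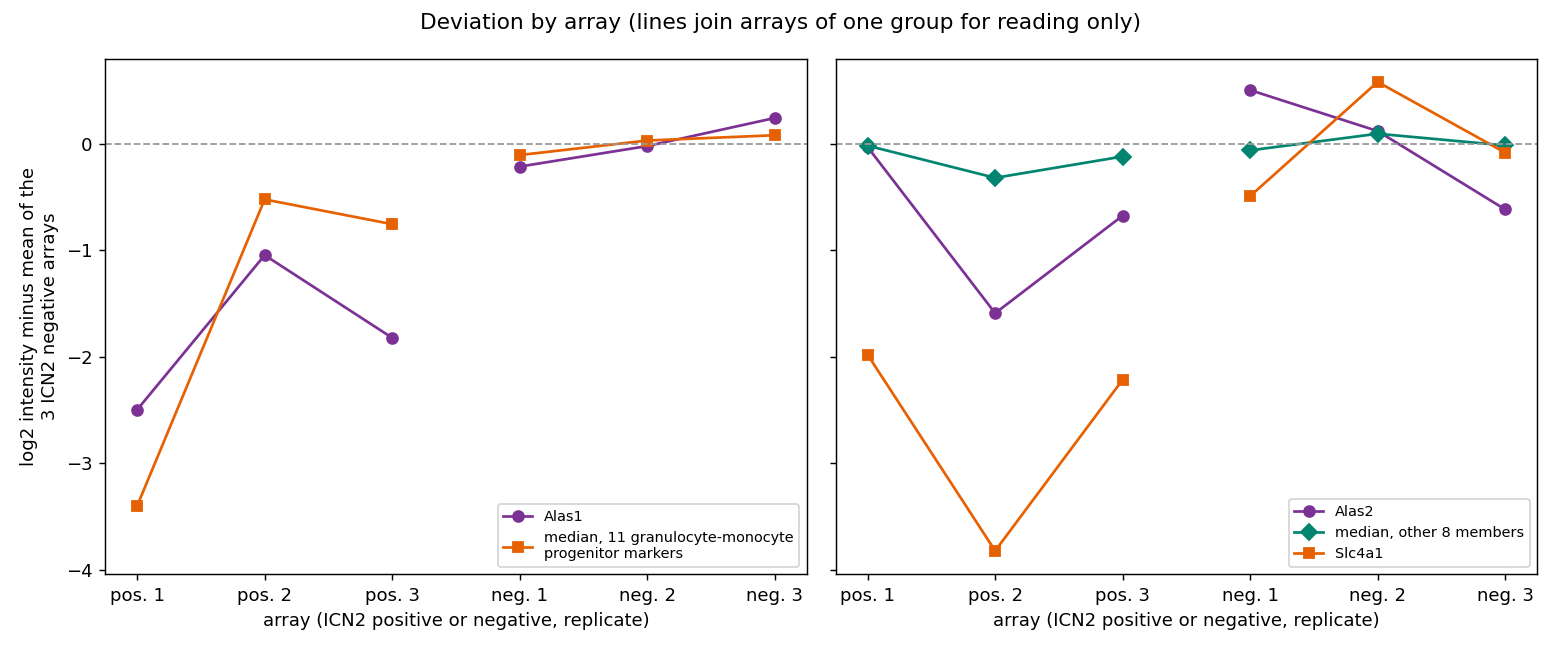
Log2 intensity minus the mean of the 3 ICN2 negative arrays (y axis) on each array (x axis; pos. is ICN2 positive, neg. is ICN2 negative). Left, Alas1 is lowest on ICN2 positive replicate 1 (-2.50), as is the median of 11 granulocyte-monocyte progenitor markers (-3.40); right, Alas2 (-1.59), the median of the other 8 members (-0.32) and Slc4a1 (-3.82) are lowest on ICN2 positive replicate 2.

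Correlations were ranked over the tested genes whose symbol a RefSeq gene list holds. The 3 with the highest Pearson correlation to Alas1 over the 6 arrays were Mpnd (r = 1.000), Ltb4r1 (r = 0.999) and Tmem229b (r = 0.998). Ltb4r1 encodes a leukotriene B4 receptor of myeloid cells. Their differences were -1.14, -1.25 and -1.24 (log2), with adjusted p of 0.0597, 0.0677 and 0.0677 in limma. These correlations are a description over 6 arrays, chosen as the highest among those of the 12837 tested genes that this list holds. Any gene that differs between the groups as Alas1 does would have a high one.

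Alas2, the erythroid form of the same enzyme, had a single probe set. It read 9.37, 7.81 and 8.73 (log2 intensity) in ICN2 positive cells, against 9.91, 9.52 and 8.79 in ICN2 negative cells. The groups overlapped, since ICN2 positive replicate 1 was above ICN2 negative replicate 3. The means were 8.64 ± 0.78 in ICN2 positive cells and 9.41 ± 0.57 in ICN2 negative cells (SD, n = 3 each), a difference of -0.77 ± 0.47 (SE) that did not pass (adjusted p = 0.343, limma). Without ICN2 positive replicate 2 it was -0.36. Its 95% interval, -1.94 to 0.40, takes in no difference as well as one as large as that of Alas1. Alas2 lies on the X chromosome, and the groups differ in sex. Among the genes ranked for Alas1, the 3 whose pattern over the 6 arrays was most like that of Alas2 were Hint1, Smim10l2a and Mea1 (r = 0.981, 0.980 and 0.979). Their differences were -0.04, -0.16 and -0.08 (log2). None of these passed in limma.

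Slc25a38 encodes the carrier that brings glycine into mitochondria for the first step. It read 10.10, 9.61 and 9.90 in ICN2 positive cells and 9.95, 10.18 and 10.15 in ICN2 negative cells, with overlap. The difference was -0.22 ± 0.14 (95% interval -0.58 to 0.13, adjusted p = 0.366). Leaving out ICN2 positive replicate 1 gave -0.34, and leaving out replicate 2 of that group gave -0.095.

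The cytosolic steps follow. Alad encodes aminolevulinate dehydratase, which joins 2 molecules of the first product, and it was the only member with a higher mean in ICN2 positive cells. Its brighter probe set read 13.41, 13.21 and 13.36 in ICN2 positive cells and 13.18, 13.19 and 13.14 in ICN2 negative cells. Every ICN2 positive array was above every ICN2 negative array, by a small margin for replicate 2, and the difference of 0.16 ± 0.08 did not pass (95% interval -0.03 to 0.35, adjusted p = 0.242). The dimmer Alad probe set, 1457306_at, read 9.16, 8.79 and 9.18 in ICN2 positive cells, against 8.52, 8.64 and 8.59 in ICN2 negative cells. Again the groups did not overlap, and its difference was 0.45 ± 0.12 (adjusted p = 0.112 over probe sets).

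Uros encodes uroporphyrinogen III synthase, which closes the ring in the form that leads to heme. It read 11.48, 11.59 and 11.66 in ICN2 positive cells and 11.88, 12.13 and 11.99 in ICN2 negative cells. No ICN2 positive array reached the lowest ICN2 negative one, and the spread within each group was small. The difference was -0.42 ± 0.09, or 1.34-fold lower in ICN2 positive cells, with a 95% interval of -0.66 to -0.19 (adjusted p = 0.0674, limma). The other Uros probe set, 1440535_at, differed by -0.30 ± 0.21 with overlapping groups (adjusted p = 0.432 over probe sets). Uros passed with array weights (-0.35, adjusted p = 0.0187) and with the robust variance model (adjusted p = 0.0405), and with 1 array left out its adjusted p was 0.0926 to 0.197.

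Urod, the uroporphyrinogen decarboxylase, had the smallest difference of the 10 genes. It read 13.72, 13.57 and 13.67 in ICN2 positive cells and 13.69, 13.73 and 13.62 in ICN2 negative cells. The difference was -0.03 ± 0.07, and the 95% interval of -0.21 to 0.15 bounds a change in either direction to well under that measured for Alas1. Its other probe set gave the same difference, -0.03.

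The last steps return to the mitochondrion. Cpox, coproporphyrinogen oxidase, read 11.38, 10.80 and 11.33 in ICN2 positive cells and 11.36, 11.56 and 11.37 in ICN2 negative cells. A low value on ICN2 positive replicate 2 made up most of its difference of -0.26 ± 0.18 (adjusted p = 0.386), which was -0.07 without that array. The other Cpox probe sets differed by -0.19 and -0.54, and neither passed.

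Tmem14c encodes an inner membrane protein needed for protoporphyrinogen IX to enter the mitochondrial matrix in erythroid cells. It read 13.02, 12.98 and 13.06 in ICN2 positive cells, against 13.15, 13.27 and 13.20 in ICN2 negative cells. The groups did not overlap, and the difference was small at -0.19 ± 0.07 (95% interval -0.35 to -0.02, adjusted p = 0.146).

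Ppox, protoporphyrinogen oxidase, read 11.38, 10.91 and 11.18 in ICN2 positive cells and 11.41, 11.62 and 11.38 in ICN2 negative cells. Its groups met at nearly the same value, and the difference was -0.31 ± 0.14 (95% interval -0.67 to 0.04, adjusted p = 0.222), or -0.19 without ICN2 positive replicate 2. A dimmer Ppox probe set, 1448065_at, differed by -0.15 with overlap, and the remaining one lay below the 40th percentile on all 6 arrays.

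Fech encodes ferrochelatase, which inserts iron into the finished ring. Its brightest probe set read 12.74, 12.47 and 12.61 in ICN2 positive cells and 12.59, 12.78 and 12.68 in ICN2 negative cells, a difference of -0.08 ± 0.10 (95% interval -0.32 to 0.16, adjusted p = 0.633). With 1 array left out it ranged from -0.14 (without ICN2 positive replicate 1) to -0.012 (without ICN2 positive replicate 2). The 2 other tested Fech probe sets differed by -0.13 and -0.19, and a further one was below the 40th percentile on all 6 arrays.

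**Figure D3:**
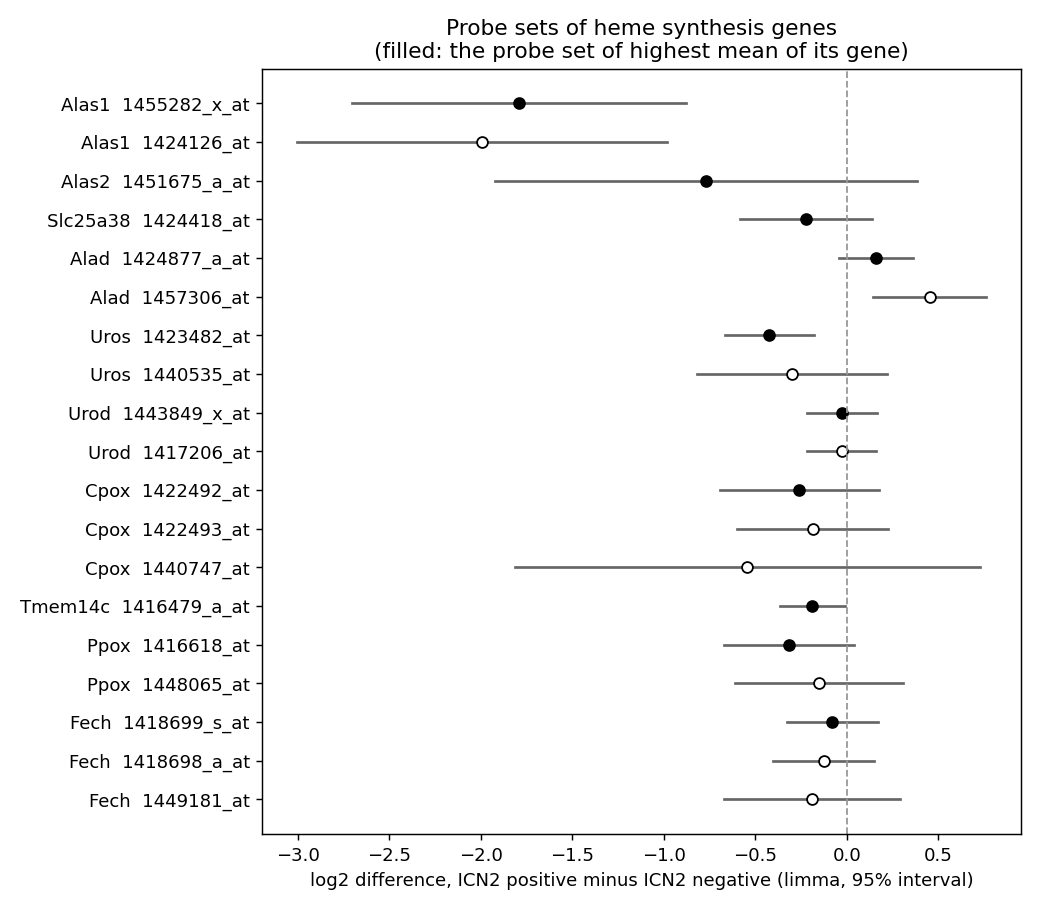
Difference in log2 intensity, ICN2 positive minus ICN2 negative (x axis), with the 95% interval of the fit over all probe sets, for the 19 tested probe sets of the 10 genes in pathway order (y axis). Both Alas1 probe sets lie furthest to the left (-1.79 and -1.99), and both Alad probe sets lie on the positive side.

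The members also shared a pattern within groups. In ICN2 positive cells, replicate 2 had the lowest value of its group for 8 of 10 members (all but Alas1 and Uros), where it was lowest for 35.8% of all genes tested. In ICN2 negative cells, replicate 2 had the highest value for 8 of 10 members (all but Alas1 and Alas2), where it was highest for 32.1% of all genes. The genes share arrays and cells, so these counts are a description of 6 arrays. Of the 16 tested genes of an erythroid marker list, 12 were lowest of their group on ICN2 positive replicate 2, 9 were highest on ICN2 negative replicate 2, and 6 were both. The share of all genes that were both was not computed, so nothing is drawn from the count of 6. Slc4a1, one of these 6 and chosen after its values were seen, is the anion exchanger of the red cell membrane. It read 9.85, 8.01 and 9.62 in ICN2 positive cells and 11.34, 12.42 and 11.75 in ICN2 negative cells (difference -2.67 ± 0.55, adjusted p = 0.0596, limma). Of its other probe sets, one differed by -2.74 and one by less than 0.01. Its groups were far apart, with no overlap.

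Of 20 erythroid markers listed, 16 were tested, and 4 fell in ICN2 positive cells (Trim10, Cldn13, Sptb and Epb42), against 1.78% of all genes called lower. Trim10, a gene of terminal red cell development, fell 3.04-fold (adjusted p = 0.00718). Trim10 passed on leaving out any single array, while the count was 1 without ICN2 negative replicate 2 or 3, 2 without ICN2 negative replicate 1 or ICN2 positive replicate 2, and 3 to 4 without either other array. Of all 12837 genes, 99 and 100, then 272 and 334, then 141 to 768 were called in these fits. With array weights or the robust variance model 6 passed, Slc4a1 and Rhd among them, where 3262 and 835 of all genes did. The count was 3 with the mean of probe sets and 2 with the replicate number as a block, where 646 and 340 of all genes passed. A dimmer probe set of Epb42 (-0.17) and one of Sptb (-0.03) did not pass. The median difference of the 16 was -0.16, and their summed intensity was 75742 to 83799 in ICN2 positive cells and 88098 to 92595 in ICN2 negative cells. Epor, Klf1, Car1 and Gata1 of this list had higher means (differences of 0.23, 0.16, 0.13 and 0.08), and none of these passed. The groups of Car1 did not overlap, and Epor differed by 0.046 without ICN2 positive replicate 1. The other tested markers had lower means. The probe set named for the alpha globin gene Hba-a1 lay below the 40th percentile on all 6 arrays. Probe sets annotated to several genes were not read, so this value does not give the level of alpha globin in these cells. How far these markers bear on the values of the heme genes was not tested.

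The transcription factor genes that act on erythroid heme genes did not pass in limma. Gata1 read 12.27, 12.14 and 12.19 in ICN2 positive cells and 12.15, 12.14 and 12.09 in ICN2 negative cells. Klf1, which activates globin and heme genes, differed by 0.16 ± 0.13, Nfe2 by 0.08 ± 0.09, Gata2 by 0.24 ± 0.25 and Tal1 by 0.26 ± 0.10 (adjusted p = 0.173 to 0.616 for the 5 genes). Without ICN2 positive replicate 1 the difference of Klf1 was 0.037 and that of Gata2 0.48, and on leaving out replicate 2 of that group those of Gata2 and Nfe2 were 0.069 and 0.011.

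Genes around the pathway were read from a list of 48, of which 42 were tested. Of these 42, 2 fell in ICN2 positive cells and none rose, against 1.78% and 2.59% of all genes, and the median difference was 0.07 (log2). Both that fell belong to mitochondrial transport and assembly. Slc25a37, the mitochondrial iron importer of erythroid cells, read 10.19, 9.92 and 9.82 in ICN2 positive cells and 10.74, 11.37 and 10.91 in ICN2 negative cells. The groups did not overlap, and it fell 2.04-fold (adjusted p = 0.0484). Its only probe set missed the threshold over probe sets (adjusted p = 0.0595, limma). Fam210b, an inner membrane protein that aids iron import for heme synthesis, read 10.63, 10.42 and 10.64 in ICN2 positive cells and 11.06, 11.35 and 11.23 in ICN2 negative cells. It fell 1.57-fold, or by 0.65 ± 0.11 on the log2 scale (adjusted p = 0.038). The 2 dimmer Fam210b probe sets differed by -0.78 and -1.05 without passing over probe sets (adjusted p = 0.0745 and 0.121). No gene of the list was called lower on leaving out any single array but ICN2 positive replicate 1, or with the replicate number as a block, and 2 were without ICN2 positive replicate 1.

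Elsewhere on that list no gene passed. Pgrmc1, a heme-binding protein that partners ferrochelatase, read 12.12, 12.09 and 12.12 in ICN2 positive cells and 11.77, 11.80 and 11.62 in ICN2 negative cells, a difference of 0.38 ± 0.07 (adjusted p = 0.052). Its gene lies on the X chromosome, as do Gata1 and Cybb, and the groups differ in sex. Clpx, the unfoldase that activates and turns over aminolevulinate synthase, differed by 0.32 ± 0.11 (adjusted p = 0.131), and its protease partner Clpp by 0.16 ± 0.08. For the supply of substrates, Shmt2, a mitochondrial enzyme of glycine metabolism, differed by 0.43 ± 0.17 and the glycine transporter gene Slc6a9 by -0.54 ± 0.32. Among genes of heme export and breakdown, the exporter genes Abcg2 and Flvcr1 differed by 0.32 ± 0.11 and 0.18 ± 0.10. Single arrays moved some of these values: without ICN2 positive replicate 1 the difference of Shmt2 was 0.24 and that of Clpp 0.097, while Slc6a9 ranged from -0.79 to -0.28 with 1 array left out.

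Sensors and users of heme followed no single direction. Eif2ak1, the heme-regulated kinase that restrains translation when heme is short, differed by -0.24 ± 0.08 (adjusted p = 0.125), and Nfe2l2, a stress factor that induces heme oxygenase, by 0.24 ± 0.09 (adjusted p = 0.16). The iron-responsive proteins Aco1 and Ireb2 differed by 0.11 ± 0.08 and -0.01 ± 0.07. Of the iron-sulfur cluster genes, Hspa9 differed by 0.22 ± 0.09 and Isca1 by -0.16 ± 0.08. Isca1 stood at -0.10 without ICN2 positive replicate 2, Nfe2l2 and Aco1 at 0.16 and 0.060 without ICN2 positive replicate 3, and Ireb2, near 0, at -0.041 to 0.016 with 1 array left out. Mpo, the heme-bearing myeloperoxidase of granulocyte precursors, read 11.71, 13.69 and 13.63 in ICN2 positive cells and 14.00, 14.03 and 14.08 in ICN2 negative cells. Its difference was -1.02 ± 0.55 (adjusted p = 0.287), and -0.37 without ICN2 positive replicate 1 (adjusted p = 0.0502). Cybb, the heme-bearing chain of the phagocyte oxidase, differed by -1.79 ± 0.86 (adjusted p = 0.243), and by -0.88 without that array.

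**Figure D4:**
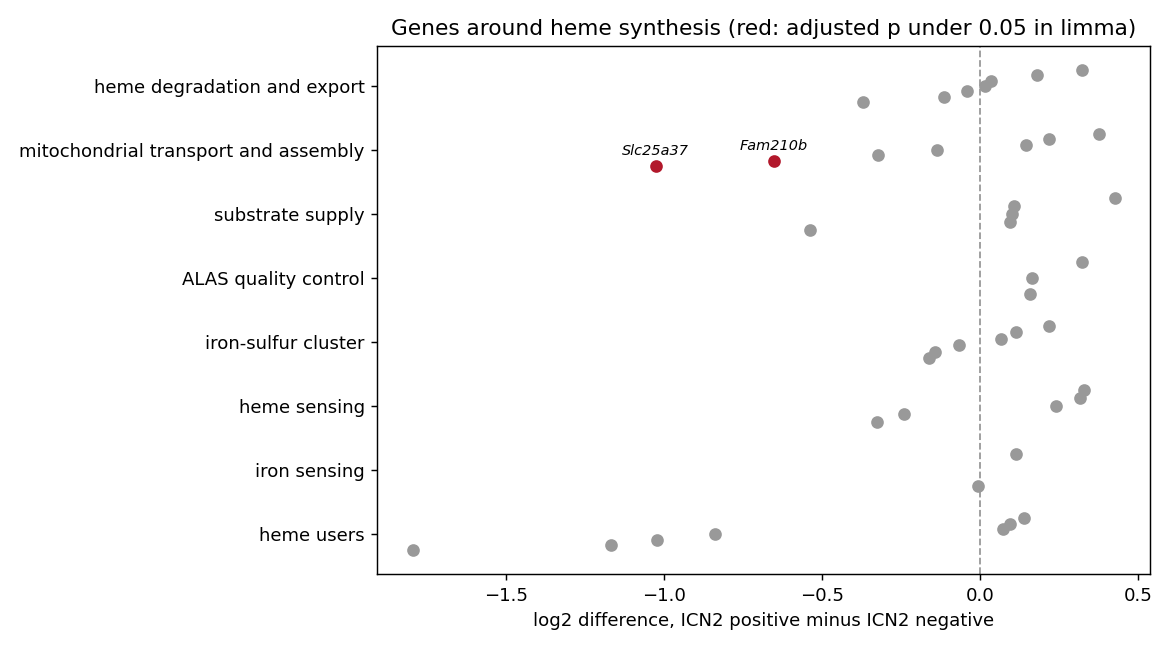
Difference in log2 intensity, ICN2 positive minus ICN2 negative (x axis), of 42 tested genes around heme synthesis, by role (y axis); each point is a gene. The 2 genes in red, Slc25a37 (-1.03) and Fam210b (-0.65), passed an adjusted p of 0.05 in limma.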

How the data were processed

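RNA of sorted bone marrow cells (5 ng per sample, amplified and labelled per the labels' protocols) was read on 6 Affymetrix mouse arrays, 3 per group. The authors deposited 1 intensity per probe set and array, made by RMA per the submitters' processing notes with the version number not given in the sources used here. These deposited values were linear, from 5.13 to 24678.6, and log2 was taken here. No scanner file was used, so background was not measured, and the number of arrays limits the precision. Of 45101 probe sets, 64 were array controls, 34958 had 1 gene, 932 several and 9211 none. A probe set with several genes or none was not named.

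Probe sets above the 40th percentile of their array on at least 3 arrays were tested (27424, in 12837 genes). For a gene, the tested probe set with the highest mean over the arrays was taken. Differences were fitted with lmFit and eBayes of limma 3.58.1 (R 4.3.3) with no covariate, ICN2 positive minus ICN2 negative, with Benjamini-Hochberg adjustment over all genes, or over all probe sets where stated, and a threshold of 0.05. Errors beside a difference are standard errors of this fit. The fit was tested on simulated data.

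The members and gene lists were chosen with earlier results of these data known. A gene of the planned neighbour list is not reported here. Named genes were all members, 5 erythroid regulators, neighbour genes past the threshold and up to 2 per role with the smallest p, and the 3 genes most like Alas1 and Alas2. Markers (Slc4a1, Trim10 and mast cell proteases among them) and Pgrmc1 were named after their values were seen. Alternatives covered the filter, normalization, variance model, array weights, replicate number, probe set choice and each array left out. For marker and regulator genes, leaving out each array was chosen after seeing the data.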

Additional observations from a re-analysis of the deposited data

How the results depend on the processing

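Of 150 alternative values for the 10 genes, 144 kept their direction and their side of the threshold, 5 passed it and 1 turned sign. For probe sets these counts were 250, 8 and 4. The count of heme synthesis genes called lower was 0 as reported, 2 with array weights and 2 with robust eBayes with trend (Alas1 and Uros), and 0 to 1 with each array left out. Probe sets called lower numbered 0 as reported, 3 under each of these settings and 0 to 1 with each array left out, and 1 was higher with array weights (Alad, 1457306_at). Neighbour genes called lower numbered 2 as reported, 1 with no filter, with median centring or with the mean of probe sets, 4 with array weights and 0 to 2 with each array left out. Those called higher numbered 0 as reported, 1 with the filter at the 60th percentile or robust eBayes with trend, and 4 with array weights. Array weights called 3262 of all 12837 genes and robust eBayes with trend 835, against 560 as reported. Without ICN2 positive replicate 2, where 1 heme synthesis gene was called lower, 334 of all genes were called. The differences of Urod, near 0 throughout, were -0.061 to 0.014 with each array left out (the same for its probe set 1443849_x_at and -0.060 to 0.010 for 1417206_at), and 0.013 for 1417206_at with array weights. With the replicate number as a block, 0 heme synthesis genes and 0 neighbour genes were called, and 340 of all genes. Same-numbered arrays had correlations of their deviations of 0.18, 0.14 and 0.09, and the labels do not pair them. The cause of these changes was not tested. With 3 arrays a group, without measured background, differences such as those of Alas2 and Cpox had intervals wide enough to hold both no change and a sizeable one.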
